A study of Mus musculus with 6 samples.

Results

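The MYC, MAX and MXD network is a set of 10 genes for transcription factors with a basic helix-loop-helix leucine zipper domain, chosen by name: Myc, Mycn, Mycl, Max, Mxd1, Mxd3, Mxd4, Mxi1, Mnt and Mlx. All 10 were measured, by 24 probe sets, among 18194 genes measured in all. The set was put together with the comparison below already in view, so the members' values are a description and carry no test. Gene expression was measured in cumulus cells, the somatic cells around the oocyte, of wild-type mice. Growth of follicles was stimulated in females 21 days old with 5 IU of eCG (equine chorionic gonadotropin), and the age at collection was 23 days in both groups. After 46 h one group received no human chorionic gonadotropin (hCG-0h) and the other was kept for 6 h under 5 IU of hCG, the hormone that sets off ovulation (hCG-6h). Each group held 3 samples, each made from 50 cumulus-oocyte complexes and put on 1 array, and the medium of both groups contained 5 µM milrinone, an inhibitor of the oocyte phosphodiesterase. Samples 2 and 3 of the hCG-6h group are described as 7 h and 8 h after hCG, against 6 h in their titles. Separate animals are not stated in the labels, so p-values measure the spread between these samples, which may be technical, and the number of arrays limits the precision. No group without hCG was kept for the same 6 h, so time and hCG cannot be told apart.

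MAX is the shared partner of the network. With MYC, MYCN or MYCL it binds the E-box CACGTG and activates genes of growth, ribosome assembly and cell division, and with the MXD proteins (MXD1, MXD3, MXD4 and MXI1) or MNT it binds the same motif and recruits SIN3 and histone deacetylases, which repress. MLX is a MAX-like protein that pairs with the glucose-sensing Mondo proteins MLXIP and MLXIPL, and also with MXD1, MXD4 and MNT. In granulosa lineage cells MYC is known as an early response gene of growth, and the ovulatory stimulus ends their proliferation.

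Values are log2 expression values, in which 1 unit is a 2-fold difference, and changes are hCG-6h minus hCG-0h. Within groups, the median SD over all genes was 0.185. The dimmest 1 in 3 genes lay under 6.08, where background correction compresses folds. Across all genes 21.3% were past the threshold (limma, Benjamini-Hochberg adjusted p under 0.05), 10.8% higher and 10.5% lower at hCG-6h, and the median change was 0.0067. Cumulus and granulosa markers were bright: none of the 11 measured lay under 6.08, and their summed level was 15.72 to 15.75 at hCG-0h and 15.33 to 15.41 at hCG-6h. Of 11 oocyte markers 10 lay under 6.08 (summed level 8.50 to 8.94 and 8.99 to 9.17), as did 4 of 5 endothelial markers (7.35 to 8.23 and 8.39 to 9.10), 4 of 5 of theca and stroma (7.78 to 7.99 and 7.91 to 8.12), 2 of 6 of leukocytes (8.70 to 9.04 and 9.0 to 9.08) and 1 of 2 of erythroid cells (7.61 to 7.78 and 6.69 to 6.85). Summed levels of cumulus, oocyte, endothelial and erythroid markers did not overlap between the groups, and their part in the results below was not tested. Such sums weigh the brightest marker of a list most. Counted by gene, 6 of the 11 cumulus and granulosa markers fell, 0 rose and 5 did not pass (median log2 change -0.71). The largest falls were in Slc38a3, Fshr, Kitl and Nr5a2, with log2 changes of -3.70, -3.22, -2.02 and -1.57. Slc38a3 lay under 6.08 at hCG-6h. The erythroid marker Alas2 changed by -1.35 and Hba-a1 by 0.25. The brightest oocyte marker, Dppa3, changed by 0.96 (list median 0.12), and the brightest endothelial marker, Cdh5, by 1.63 (list median 0.21). Neither overlapped between the groups (limma adjusted p = 0.0851 and 0.053). Adjusted over all probe sets, 1 of 2 probe sets of Cdh5 passed. Counted by gene, 0 of the 11 oocyte and 0 of the 5 endothelial markers passed, and 0 to 1 of each list with samples omitted one at a time. Of the other lists, 1 of 6 leukocyte, 1 of 5 theca and stroma and 1 of 2 erythroid markers passed. These were Cd52 (change 1.00 ± 0.17, SE), Cyp11b1 (change 0.51 ± 0.11, SE) and Alas2. Cyp11b1 was dim in all samples and Cd52 at hCG-0h. The call of Cyp11b1 was lost without sample 3 of either group, hCG-0h sample 2 or hCG-6h sample 1. These genes were named after their values were seen.

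The network's own motif stood in the promoters of 4 members. In windows from 250 bases before to 50 bases after the gene start (RefSeq, GRCm38.p6), 9 of the 10 members had an entry, and Max, Mnt, Mxd4 and Mlx held CACGTG, which reads the same on both strands. Windows of a single chromosome were left out of all counts. Of the 32851 that remained 7.15% held CACGTG, and of the 14453 measured genes with a window 10.2% did. The stretches of 60 bases around the motif, in capitals, are shown for these members because the network's proteins bind this motif. They are Mlx (chr11:101087223-101087282, plus strand), Mnt (chr11:74830774-74830833, plus strand), Mxd4 (chr5:34187897-34187956, minus strand) and Max (chr12:76962246-76962305, minus strand).
Mlx: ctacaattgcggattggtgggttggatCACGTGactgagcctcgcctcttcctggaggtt
Mnt: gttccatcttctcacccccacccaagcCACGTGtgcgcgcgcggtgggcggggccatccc
Mxd4: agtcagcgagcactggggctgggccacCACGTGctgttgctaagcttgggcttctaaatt
Max: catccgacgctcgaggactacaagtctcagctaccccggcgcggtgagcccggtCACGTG
The motif began 40 bases before the start of Mlx, 123 before that of Mnt, 219 before that of Mxd4 and 3 before that of Max. A match of letters is a description and shows no binding. The windows of Mycn, Mycl, Mxd1, Mxd3 and Mxi1 did not hold these letters.

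Within the MYC family, Myc and Mycl were much lower at hCG-6h and Mycn was not. Myc, the founding member, stood at 11.93, 11.93 and 12.09 in hCG-0h samples 1 to 3 and at 9.51, 9.53 and 9.75 in hCG-6h samples 1 to 3. The groups lay far apart, and hCG-0h sample 3 and hCG-6h sample 3 were the highest of their groups. Its single probe set went from 11.98 ± 0.09 to 9.60 ± 0.13 (SD, n = 3 each), 5.23-fold lower (log2 change -2.39 ± 0.12, SE). In these bulk samples, fewer cells that express a gene and less RNA per cell cannot be told apart.

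Mycl, the member first found in lung cancer, had the largest difference of the network, and its 3 probe sets gave the same direction. Its brightest probe set read 10.51, 9.77 and 9.75 at hCG-0h and 6.89, 5.50 and 6.61 at hCG-6h, a log2 change of -3.68 ± 0.40 (SE), or 12.8-fold lower. The next read 10.16, 9.80 and 9.06 against 6.30, 6.39 and 6.16, with a change of -3.39 ± 0.28 (SE). The dimmest read 9.39, 8.81 and 8.62 against 5.48, 4.84 and 4.90, with a change of -3.87 ± 0.26 (SE). In every one of the 3 probe sets hCG-0h sample 1 was the highest sample and no value of one group reached the other. Several hCG-6h values lay under 6.08, so these folds are approximate.

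Mycn, which is best known from neural and embryonic tissues, showed small changes of either sign. Its brightest probe set read 10.41, 10.03 and 9.41 at hCG-0h and 9.70, 9.85 and 10.01 at hCG-6h, with overlapping groups and a log2 change of -0.10 ± 0.26 (SE). The second read 9.45, 9.42 and 8.94 against 9.63, 9.5 and 9.61 (change 0.31 ± 0.16, SE). The third, at 6.32 to 6.62 in all samples, changed by 0.15 ± 0.10 (SE), and in these last probe sets all hCG-6h values lay above the hCG-0h values. hCG-0h sample 3 was the lowest of its group in both brighter probe sets. The change of the brightest lay between -0.37 and 0.13 when each sample was left out in turn, so that its sign depended on the samples.

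Max differed far less than Myc. Its single probe set read 9.36, 9.74 and 9.46 at hCG-0h and 9.12, 8.99 and 8.97 at hCG-6h. All 3 hCG-6h values lay below the hCG-0h values, with a log2 change of -0.49 ± 0.13 (SE), 1.41-fold lower.

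**Figure D1:**
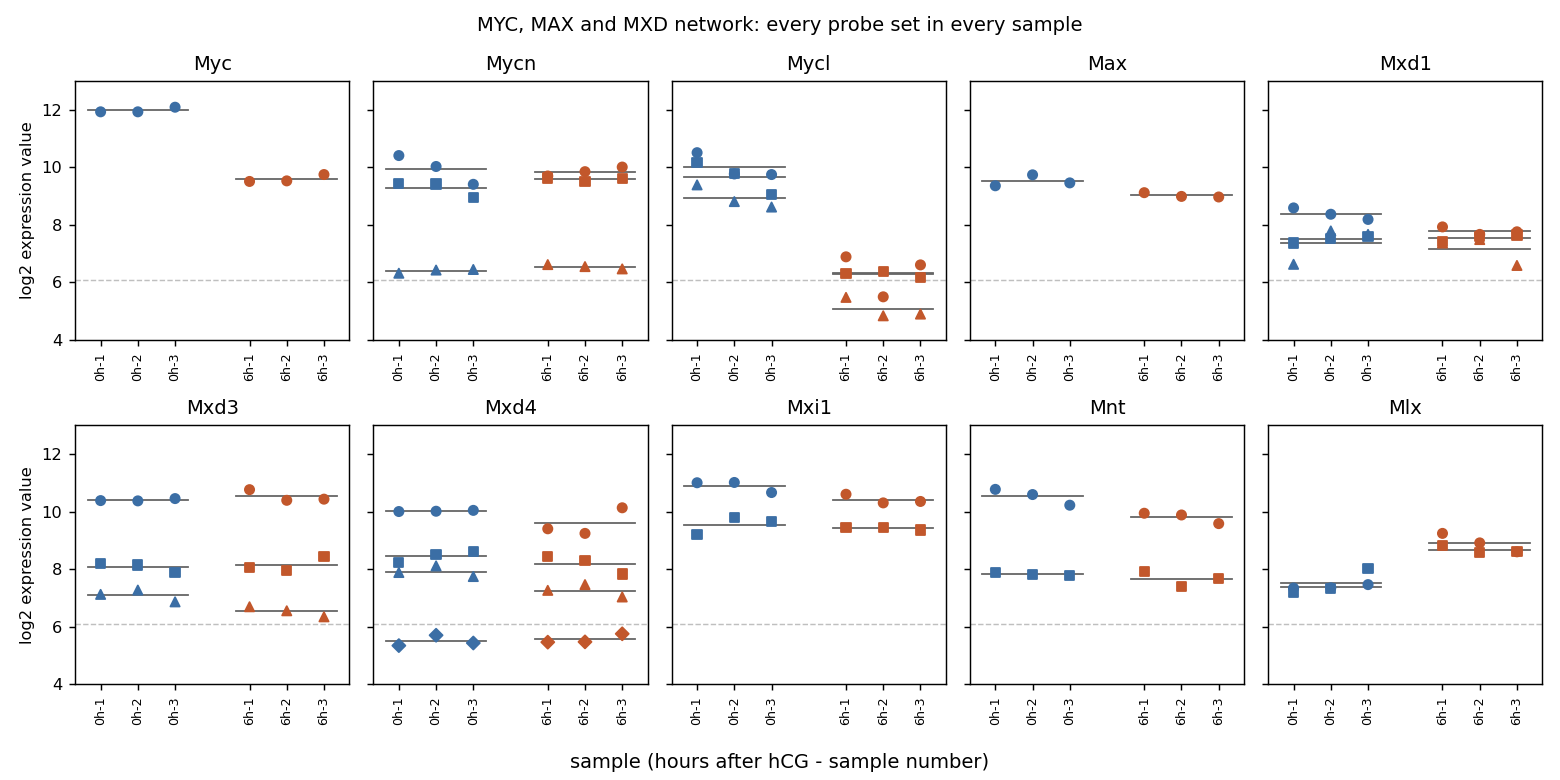
Log2 expression value (vertical axis) of every probe set of the 10 genes in each of the 6 samples (horizontal axis, hours after hCG and sample number). Blue points are hCG-0h and orange points hCG-6h, marker shapes are probe sets of one gene, grey bars are group means and the dashed line marks 6.08, the limit of the dimmest 1 in 3 genes. Myc and all 3 probe sets of Mycl stand lower at hCG-6h and both probe sets of Mlx higher.

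The repressor arm differed little. The 5 repressor genes had 14 probe sets with log2 changes between -0.73 and 0.13 and a median of -0.23, 10 of them negative. Groups did not overlap in 5 of the 14, 1 for each gene and each lower at hCG-6h, a share near the 33.8% of all probe sets on the array. For Mnt, the broadly expressed antagonist of MYC, the brighter probe set read 10.77, 10.59 and 10.22 at hCG-0h and 9.94, 9.88 and 9.58 at hCG-6h. Its change was -0.73 ± 0.18 (SE), 1.65-fold lower, whereas the dimmer Mnt probe set overlapped between groups (change -0.17 ± 0.15, SE).

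Probe sets of one MXD gene disagreed in size and, for Mxd1, Mxd3 and Mxd4, in sign. For Mxd1, the repressor that rises when many cell types differentiate, the brightest probe set read 8.59, 8.37 and 8.19 against 7.93, 7.67 and 7.76, a log2 change of -0.60 ± 0.14 (SE). The other Mxd1 probe sets overlapped between groups, with changes of 0.06 ± 0.12 and -0.21 ± 0.38 (SE). Mxi1, also called MXD2, read 11.00, 11.01 and 10.66 against 10.60, 10.30 and 10.35 in its brighter probe set (change -0.47 ± 0.15, SE) and a narrow gap between the groups. Its dimmer probe set changed by -0.13 ± 0.17 (SE).

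Mxd3, the MXD member tied to S phase, was level in its brightest probe set, at 10.38, 10.37 and 10.45 against 10.76, 10.39 and 10.43 (log2 change 0.13 ± 0.13, SE). The middle one changed by 0.08 ± 0.17 (SE). The dimmest was lower at hCG-6h, with 7.12, 7.27 and 6.86 against 6.69, 6.55 and 6.34 (change -0.56 ± 0.15, SE). For Mxd4, the brightest of 4 probe sets lay at 10.02 ± 0.02 at hCG-0h (SD, n = 3) and read 9.40, 9.24 and 10.13 at hCG-6h. There hCG-6h sample 3 stood with the hCG-0h samples and the other hCG-6h samples were lower, so that the groups overlapped (change -0.43 ± 0.23, SE). One Mxd4 probe set did separate the groups, with 7.88, 8.11 and 7.74 against 7.26, 7.46 and 7.03 (change -0.66 ± 0.16, SE). The other 2 probe sets of Mxd4, one of them under 6.08 in every sample, changed by -0.25 ± 0.19 and 0.07 ± 0.15 (SE) and overlapped.

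Mlx was higher at hCG-6h in both of its probe sets. Its brighter probe set read 7.34, 7.35 and 7.46 at hCG-0h and 9.24, 8.91 and 8.60 at hCG-6h, from 7.38 ± 0.07 to 8.92 ± 0.32 (SD, n = 3 each). The change was 1.53 ± 0.17 (SE), 2.89-fold higher. The second probe set read 7.20, 7.33 and 8.01 against 8.83, 8.57 and 8.60 (change 1.15 ± 0.23, SE), and hCG-0h sample 3 was the nearest of its group to hCG-6h. Neither probe set overlapped between the groups.

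Counted by gene, with the brightest probe set of each, 5 of the 10 members were past the threshold and lower (Myc, Mycl, Max, Mxd1 and Mnt), 1 was past it and higher (Mlx) and 4 did not pass. Of all genes 10.5% were lower and 10.8% higher. Since the network was chosen with this comparison in view, nothing is read from that count. By probe set, adjusted over all probe sets of the array, 9 of 24 passed, against 15.4% of all probe sets, and the groups did not overlap in 14 of 24, against 33.8%. Max did not pass by that count. When samples were omitted one at a time, 3 to 6 of the 10 genes passed, with 3 when sample 2 of either group was omitted. Myc, Mycl and Mlx passed in each of those 6 fits, with log2 changes of -2.46 to -2.33, -3.96 to -3.26 and 1.37 to 1.69. Max passed only in the fit without hCG-0h sample 1 and Mnt only in that without hCG-0h sample 3. Mxd1 passed only in the fits without hCG-0h sample 3 or hCG-6h sample 1.

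**Figure D2:**
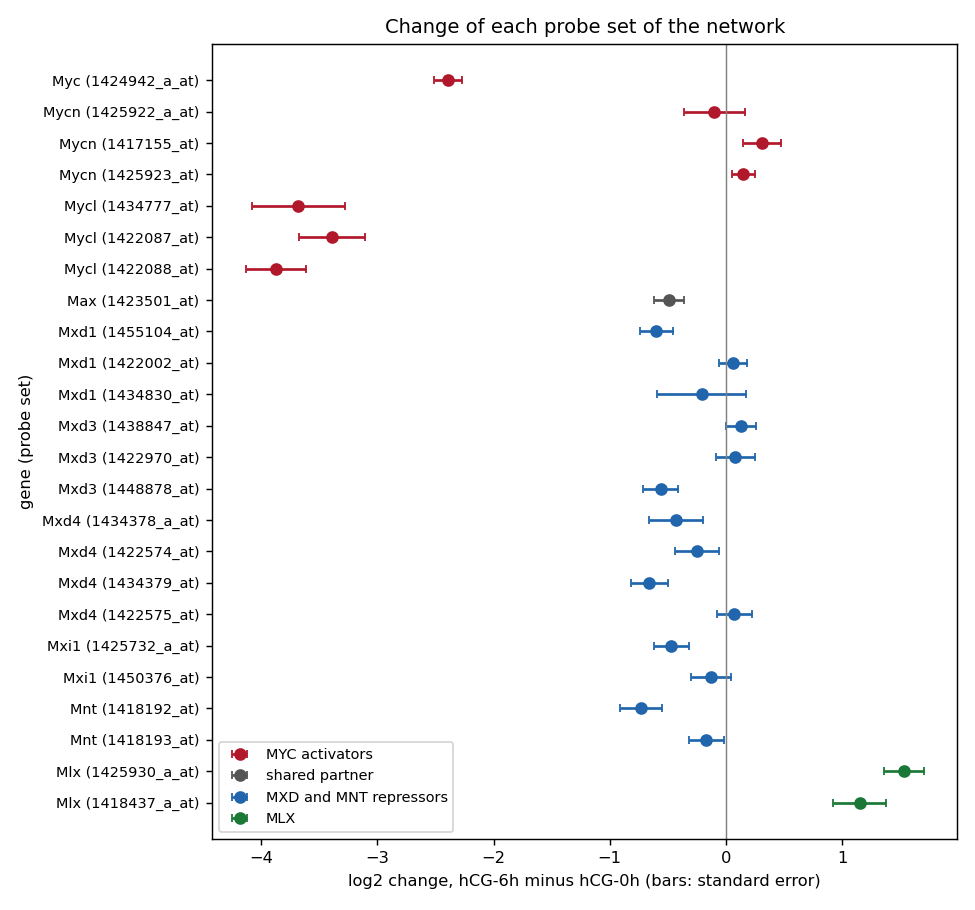
Log2 change from hCG-0h to hCG-6h (horizontal axis) of the 24 probe sets (vertical axis, gene and probe set), with bars of 1 standard error and colours by role. The MYC activators spread from -3.87 to 0.31, the repressors lie between -0.73 and 0.13, and both Mlx probe sets lie above 1.

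The genes whose profile over the 6 samples was nearest to that of Myc, by root mean square distance after centring each gene, were Lrrc10b, Fam234b, Ddah1, Ptgis and Dock9. Their distances lay between 0.109 and 0.138 log2 units, and Pearson's r with Myc over the 6 samples between 0.994 and 0.996. Ddah1 degrades methylated arginines that inhibit nitric oxide synthase, Ptgis is the prostacyclin synthase, and Dock9 activates the GTPase CDC42. Those nearest to Mxd1 were Cdc7, a kinase that starts DNA replication, Msh6, a mismatch repair protein, Spata5, the histone demethylase Kdm3a and Gbp8, at distances of 0.052 to 0.072 (r of 0.976 to 0.994). These likenesses are descriptions: all 6 samples lie in 2 groups, and the difference between the groups makes up most of each profile. Gbp8 lay at 3.29 to 4.03, near the floor of the arrays.

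Regulators of Myc itself included a neighbour that fell with it. Pvt1, a long non-coding RNA gene that is the next measured gene after Myc on chromosome 15, read 7.87, 8.62 and 8.10 at hCG-0h and 5.77, 5.22 and 5.59 at hCG-6h. It fell by 2.67 on the log2 scale (SE 0.23, limma adjusted p = 0.000399 over all genes). Its hCG-6h values all lay under 6.08, so this fold is approximate. Of its 5 probe sets 2 passed, 4 did not overlap between groups and all 5 had negative changes. The measured neighbours on the other side of Myc, Lratd2 and 4930402D18Rik, changed by -0.02 ± 0.16 and -0.08 ± 0.14 (SE), and the next gene beyond Pvt1, Macroh2a3, dim in both groups, changed by -1.04 ± 0.19 (SE, limma adjusted p = 0.00899). Beside Mycl, Trit1 and Mfsd2a did not pass (changes -0.91 ± 0.26 and -0.64 ± 0.26, SE, limma adjusted p = 0.0511 and 0.145). Beside Mlx, Coasy and Psmc3ip changed by -0.14 ± 0.22 and -0.12 ± 0.17 (SE), and of the next genes beyond them Retreg3 changed by -0.17 ± 0.21 (SE) and Hsd17b1, an enzyme of oestradiol synthesis, fell by 0.71 (SE 0.12, limma adjusted p = 0.00702). The next genes beyond those of Mycl, Cap1 and Bmp8b, changed by -0.07 ± 0.11 and 0.06 ± 0.10 (SE). The neighbours other than Pvt1 were looked up after the members' values were seen.

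In the list of genes that control Myc transcription or mRNA stability, 3 of 18 measured members rose, 1 fell (Pvt1) and 14 did not pass, with a median log2 change of 0.01. The 4 of 18 past the threshold are a share near the 21.3% of all genes. Zfp36, which destabilises mRNAs with AU-rich elements, read 11.07, 10.99 and 9.36 at hCG-0h and 12.16, 12.17 and 12.19 at hCG-6h. The groups did not overlap, and hCG-0h sample 3 was far below its group. The change of Zfp36 was 1.70 ± 0.44 (SE, limma adjusted p = 0.0351), and it no longer passed without any one of the 3 hCG-6h samples (adjusted p up to 0.0924). Its relative Zfp36l1 rose by 0.91 ± 0.15 (SE, limma adjusted p = 0.00651) and Tcf7l2, a Wnt-responsive factor that activates Myc in intestine, by 0.86 ± 0.11 (SE, limma adjusted p = 0.00212).

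Among 23 measured genes of MYC protein turnover, 2 rose, 3 fell and 18 did not pass (median log2 change -0.15), 5 of 23 in all and so near the 21.3% of all genes. Fbxw7, the ubiquitin ligase subunit that marks phosphorylated MYC for breakdown, read 9.06, 9.32 and 9.74 at hCG-0h and 10.42, 10.30 and 10.37 at hCG-6h. It rose 1.99-fold (log2 change 0.99 ± 0.18, SE, limma adjusted p = 0.00915), and its second probe set rose by 0.73 ± 0.14 (SE). Fbxo32, a ligase subunit best known from muscle wasting, read 9.69, 9.63 and 10.17 against 7.53, 6.47 and 8.03 and fell by 2.49 on the log2 scale (SE 0.39, limma adjusted p = 0.00506). The ligase Trim32 and the deubiquitinase Usp22 fell by 0.79 and 0.75 (limma adjusted p = 0.00572 and 0.00338). The second gene that rose, Aurka, a mitotic kinase that shields MYCN from breakdown, was just past the threshold (change 0.57 ± 0.16, SE, limma adjusted p = 0.0497, named after its values were seen). It failed without any one sample other than hCG-0h sample 1 (adjusted p up to 0.14). Adjusted over all probe sets, 0 of its 2 probe sets passed.

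Cofactors differed little. Of 16 measured MYC coactivators 2 fell and 14 did not pass (median log2 change -0.04), beside 21.3% past the threshold among all genes. Ep400, the motor of a histone acetyltransferase complex, fell by 0.79 (SE 0.15, limma adjusted p = 0.00979), with 3 of its 7 probe sets past the threshold. Crebbp, a histone acetyltransferase, fell by 0.36 (SE 0.10, limma adjusted p = 0.0394), a call that ended without any one of the 6 samples (adjusted p up to 0.119). Adjusted over all probe sets, 0 of its 4 probe sets passed. Trrap, the scaffold that MYC binds, changed by -0.36 ± 0.16 (SE, limma adjusted p = 0.16, named after its values were seen). Of 13 measured genes listed as corepressors of MXD and MNT, 3 fell and 10 did not pass (median -0.22), beside 10.5% lower among all genes. They were Dnmt3a, a DNA methyltransferase, Rbbp7, a histone-binding protein, and the deacetylase Hdac2, with log2 changes of -0.47, -0.43 and -0.40 (limma adjusted p = 0.0359, 0.0268 and 0.0322). Dnmt3a and Zbtb17, which did not pass, are not SIN3 or deacetylase proteins, so the list is wider than the partners of MXD and MNT. Adjusted over all probe sets, 2 of 5 probe sets of Dnmt3a passed, 2 of 2 of Rbbp7 and 1 of 3 of Hdac2. In the fits that left out 1 sample, Dnmt3a kept its call only without hCG-0h sample 3 and Rbbp7 only without hCG-0h sample 1. Hdac2 kept its call only without hCG-6h sample 3 (limma adjusted p of these 3 genes up to 0.106, 0.082 and 0.0991, in that order). With samples omitted one at a time 2 or fewer of the list passed, and none did without sample 2 of either group (limma, 4 at an unadjusted p under 0.05 in each fit). Sin3b, a scaffold of the corepressor, stood at 11.73 ± 0.04 and 11.71 ± 0.05 (SD, n = 3 each, named after its values were seen).

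The Mondo arm around MLX moved in both directions. Of 12 other E-box factors 3 rose, 2 fell and 7 did not pass (median log2 change 0.12), beside 10.8% higher and 10.5% lower among all genes. With samples omitted one at a time 2 fell in every fit but 1 or 2 rose, with 1 in the fits without sample 1 of either group or hCG-0h sample 2. Both that fell were the partners of MLX. Mlxip, called MondoA, read 9.29, 9.48 and 9.56 at hCG-0h and 8.37, 8.32 and 8.71 at hCG-6h and fell by 0.98 (SE 0.14, limma adjusted p = 0.00395). Mlxipl, called ChREBP, fell by 0.77 (SE 0.14, limma adjusted p = 0.0103), but at 5.20, 4.94 and 5.32 against 4.19, 4.47 and 4.48 it was dim in all samples. Tfe3, a factor of lysosome genes, rose by 1.18 (SE 0.15, limma adjusted p = 0.00233). Its relative Mitf rose by 0.72 (SE 0.18, limma adjusted p = 0.0297), a call lost when any of 4 samples was omitted, namely sample 1 of either group, hCG-0h sample 2 and hCG-6h sample 3 (adjusted p up to 0.0919). The third that rose, Usf1, was just past the threshold (change 0.43 ± 0.12, SE, limma adjusted p = 0.0478) and lost its call without any one of the 6 samples (adjusted p up to 0.138, named after its values were seen). Adjusted over all probe sets, 1 of 2 probe sets of Mitf passed and 0 of 3 of Usf1.

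Of 7 measured Mondo target genes 2 rose, 1 fell and 4 did not pass (median 0.21), beside 21.3% past the threshold among all genes. Their classic targets, both arrestin-related inhibitors of glucose uptake, moved apart. Txnip read 10.65, 10.23 and 10.19 at hCG-0h and 8.93, 9.20 and 9.02 at hCG-6h and fell by 1.31 (SE 0.16, limma adjusted p = 0.00166). Arrdc4 read 8.32, 7.79 and 8.33 against 10.02, 9.95 and 10.03 and rose by 1.85 (SE 0.16, limma adjusted p = 0.000451). Both probe sets of each gene passed in its direction. Klf10 rose by 1.54 (SE 0.23, limma adjusted p = 0.00455), with hCG-0h sample 3 lowest at 8.06 against 8.87 and 8.93 in samples 1 and 2.

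**Figure D3:**
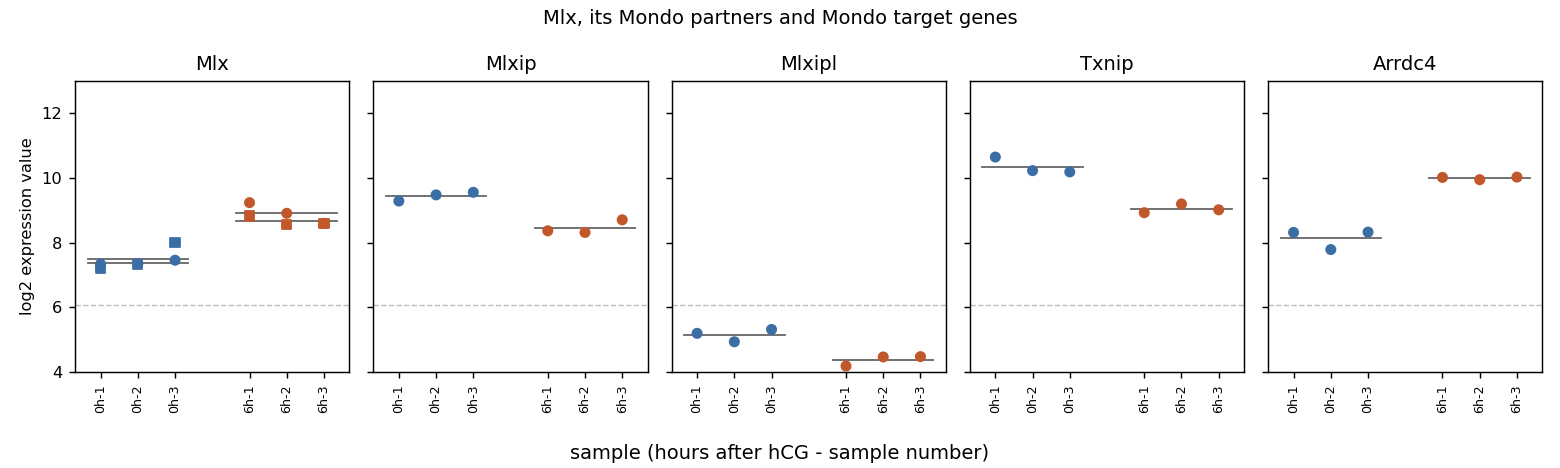
Log2 expression value (vertical axis) of Mlx, of its partner genes Mlxip and Mlxipl and of the Mondo targets Txnip and Arrdc4 in each of the 6 samples (horizontal axis), with hCG-0h in blue, hCG-6h in orange, group means as grey bars and 6.08 as the dashed line. Mlx (both probe sets) and Arrdc4 stand higher at hCG-6h, and Mlxip, Mlxipl and Txnip lower.

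Genes that MYC is known to activate went both ways. The 4 lists of such targets had medians between 0.01 and 0.14. Of 35 measured nucleolar genes 3 rose, 5 fell and 27 did not pass, beside 21.3% past the threshold among all genes. Bysl, Bop1 and Rrp9, all needed for ribosome assembly, rose by 0.90, 0.84 and 0.61, and Rcl1, a processing factor of ribosomal RNA, fell by 0.59 (limma adjusted p between 0.0199 and 0.0289). Adjusted over all probe sets, Bysl and Bop1 each passed in 1 of 2 probe sets. When samples were omitted one at a time, 1 to 5 genes of this list passed in place of 8, with 1, which fell, in the fits without hCG-0h sample 2, hCG-6h sample 1 and hCG-6h sample 3, and each of the 4 genes lost its call without hCG-0h sample 2 or hCG-6h sample 1 (adjusted p up to 0.0911). The abundant nucleolar genes Ncl and Npm1 stood at 12.56 ± 0.09 and 13.29 ± 0.05 at hCG-0h and at 12.43 ± 0.04 and 13.16 ± 0.04 at hCG-6h (SD, n = 3 each), and neither passed (limma adjusted p = 0.422 and 0.426, named after their values were seen).

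Metabolic targets moved in both directions. Of 21 measured, 7 rose, 6 fell and 8 did not pass, beside 10.8% higher and 10.5% lower among all genes. With samples omitted one at a time 6 fell in every fit but only 2 to 5 rose, with 2 in the fits without hCG-6h sample 1 or 3. Prps2, which makes the sugar phosphate of nucleotides, read 10.81, 11.03 and 10.92 against 9.18, 9.09 and 9.39 and fell by 1.70 (SE 0.12, limma adjusted p = 0.000194). Slc7a5, the large neutral amino acid transporter, read 11.14, 11.27 and 11.30 against 9.60, 9.68 and 9.37 and fell by 1.69 (SE 0.12, limma adjusted p = 0.000189). Paics, of purine synthesis, fell by 1.04, and Umps and Ppat, of pyrimidine and purine synthesis, by 0.92 and 0.71 (limma adjusted p = 0.00132, 0.00199 and 0.00387). Ctps, which makes CTP, rose by 0.97 (SE 0.10, limma adjusted p = 0.000879) and Tfrc, the transferrin receptor, by 0.70, with all 6 of its probe sets past the threshold. Odc1 and Srm, of polyamine synthesis, rose by 0.41 and 0.61, calls that ended without hCG-0h sample 1 or any one hCG-6h sample (adjusted p up to 0.0799 and 0.0766). Umps, Ppat, Tfrc, Odc1 and Srm were named after their values were seen.

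Of 14 cell cycle targets 4 rose, 4 fell and 6 did not pass, beside 10.8% higher and 10.5% lower among all genes. Ung, which removes uracil from DNA, and Mcm4, a subunit of the replicative helicase, fell by 1.25 and 1.12 (limma adjusted p = 0.00177 and 0.00656). Bmi1, a polycomb protein, and E2f2 rose by 1.04 and 0.84 (limma adjusted p = 0.011 and 0.0038). Adjusted over all probe sets, each passed in only 1 of its 2 probe sets. Ccnd2, the cyclin of granulosa cell growth, read 11.67, 11.67 and 11.85 against 10.89, 11.13 and 11.04 and fell by 0.71 (limma adjusted p = 0.0056), with all 7 of its probe sets past the threshold (named after its values were seen). Of 16 targets in translation and mitochondria, 1 rose, Ndufaf4, and 1 fell, Pprc1, by 0.60 and 0.72 (limma adjusted p = 0.0114 each), and 14 did not pass, beside 21.3% past the threshold among all genes.

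Several genes that MYC is known to repress were higher at hCG-6h. Of 12 measured, 6 rose, 1 fell and 5 did not pass, with a median log2 change of 0.39 against 0.0067 over all genes and 10.8% of all genes higher. Ndrg1, a stress-induced gene, read 7.25, 7.48 and 8.06 at hCG-0h and 8.87, 9.95 and 9.04 at hCG-6h and rose by 1.69 (SE 0.33, limma adjusted p = 0.0126). Gadd45a, a growth arrest gene, rose by 1.49, Cebpa, a differentiation factor, by 1.27 and Itgb1, the integrin beta 1 chain, by 0.57 (limma adjusted p = 0.00333, 0.00132 and 0.00953). Adjusted over all probe sets, Ndrg1 passed in 3 of its 5 probe sets and Itgb1 in 2 of its 6. Of the inhibitors of cyclin-dependent kinases, Cdkn1a rose by 0.56 and Cdkn1b fell by 0.37, both close to the threshold (limma adjusted p = 0.0493 and 0.0475, named after their values were seen). For each of them 0 of 2 probe sets passed when adjusted over all probe sets. With samples omitted one at a time 5 to 6 rose, Cdkn1a passed without hCG-0h sample 2 but in no other of those fits, and Cdkn1b passed in none of them (limma, adjusted p up to 0.136 and 0.138). These lists were drawn up from textbook knowledge with earlier results of these data known, so their counts are descriptions.

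**Figure D4:**
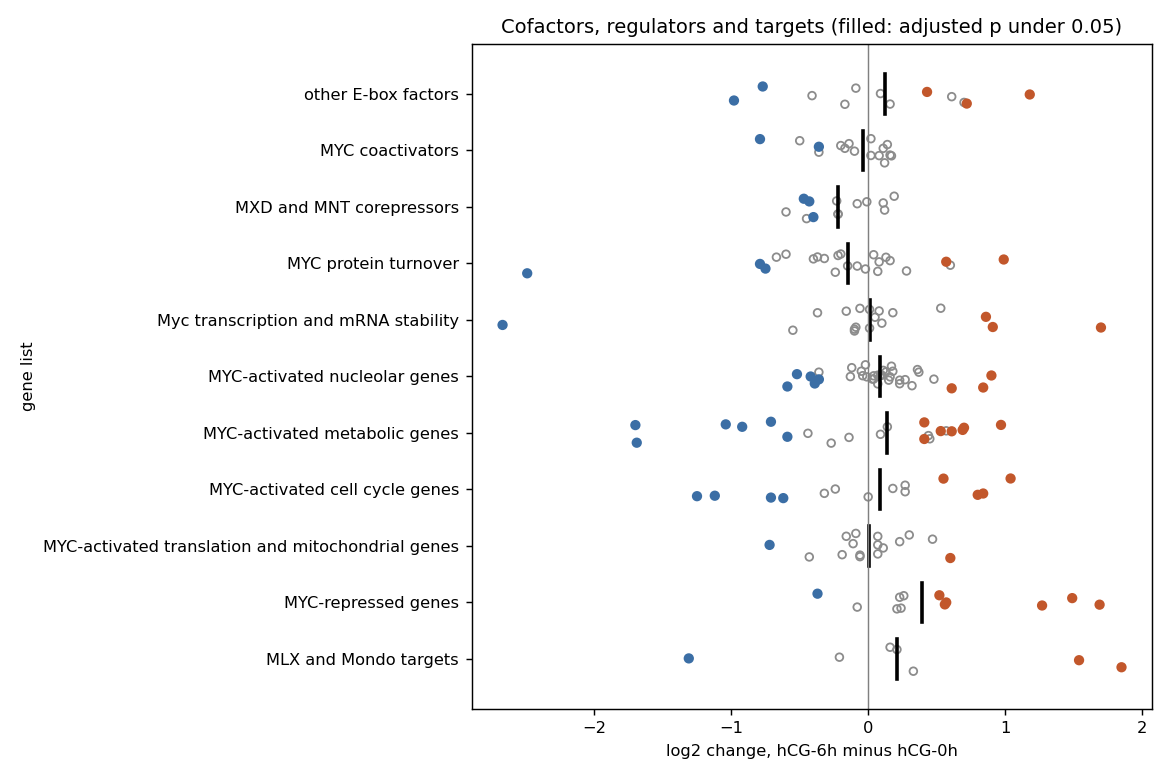
Log2 change from hCG-0h to hCG-6h (horizontal axis) of every measured gene of the 11 lists (vertical axis). Filled points passed the threshold (orange higher, blue lower), open points did not, and black bars are list medians, which run from -0.22 for the corepressors to 0.39 for the repressed targets.

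Genes with and without the E-box changed in both directions. Of 1479 measured genes with CACGTG in the promoter window 11.9% rose and 12.6% fell, and of 12974 without it 10.4% rose and 10.6% fell (no test was made of this difference). Sequences of 3 target genes show the range: Arrdc4, which rose (chr7:68749399-68749458, minus strand), Paics, which fell (chr5:76951072-76951131, plus strand), and Cdk4, a cyclin-dependent kinase with 4 copies in its window, 2 of them in this stretch (chr10:127063390-127063449, plus strand).
Arrdc4: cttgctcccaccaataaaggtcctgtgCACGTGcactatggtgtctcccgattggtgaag
Paics: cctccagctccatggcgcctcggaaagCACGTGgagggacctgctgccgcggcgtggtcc
Cdk4: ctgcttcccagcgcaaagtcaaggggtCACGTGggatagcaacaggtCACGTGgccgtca
Cdk4 read 11.97, 11.81 and 11.87 at hCG-0h and 11.60, 11.64 and 11.70 at hCG-6h, a change of -0.24 ± 0.10 (SE) that did not pass (limma adjusted p = 0.148). By list, the motif stood in 7 of 29 nucleolar targets, 3 of 18 metabolic targets, 2 of 12 cell cycle targets and 5 of 16 translation and mitochondrial targets with a window. It stood in 0 of 9 repressed targets, 1 of 16 coactivators, 1 of 10 other E-box factors and 2 of 10 listed corepressors. The counts were 3 of 19 for MYC turnover, 2 of 14 for Myc transcription and mRNA stability and 1 of 6 for Mondo targets. Of all measured genes with a window 10.2% held the motif, and these shares were not tested.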

How the data were processed

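Cumulus cell RNA of 6 samples (3 hCG-0h, 3 hCG-6h) was amplified and hybridised to single-colour arrays, per the labels' protocols. The authors deposited log2 expression values with 2 decimals, made with RMA (background correction, quantile normalisation and probe summary); GCOS and Affymetrix Expression Console 1.1 are the other tools in the submitters' processing notes. Array medians lay between 6.43 and 6.46. The sources used here name no genome build for that processing.

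Of the probe sets, 34958 had 1 gene symbol in the platform annotation, 932 several and 9211 were not listed. Entrez identifiers matched the reference gene table for 34754 (99.4%). For counts by gene the probe set with the highest mean was used (18194 genes). A linear model with group as the only term (limma 3.58.1, R 4.3.3, moderated by eBayes, two-sided) was fitted over all genes and, for the members, over all probe sets, with Benjamini-Hochberg adjustment and a threshold of 0.05, and was tested on simulated data. Marker levels were summed on the linear scale and given as log2.

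The members, the 11 lists (187 of 200 genes measured) and the tests were chosen with earlier results of these data known. Named genes are all members, up to 4 genes past the threshold with the largest changes in each list, and the 5 profiles nearest to Myc and to Mxd1; others are said to be named after their values were seen, and of the cell type marker lists summed levels are given. Some list genes were not analysed here.

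Sample numbers showed no visible pairing of the groups: deviations of same-numbered samples correlated at 0.011, -0.016 and 0.029. Such correlations cannot exclude a pairing. Alternatives were the sample number as a block, trend and robust variance, renormalisation, median centring, no dim genes, array weights, the mean of probe sets, all probe sets, hCG-6h sample 1 alone and each sample left out.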

Additional observations from a re-analysis of the deposited data

How the results depend on the processing

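The signs of Myc, Mycl, Max and Mlx in each of their probe sets held in the 12 alternatives fitted by probe set (those that pick or average probe sets by gene, or drop dim genes, give no such value), and of 288 values of member probe sets 282 moved by less than the SD within groups. The other 6, such as 1.86 for Mlx in place of 1.53, came from hCG-6h sample 1 alone, where that sample is assumed to vary like the hCG-0h samples. Of 839 values of called list genes none changed sign and 187 no longer passed.

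Over all genes 3874 passed, 6928 of all probe sets on the array, and 1577 with hCG-6h sample 1 alone. With that sample alone 3 members passed, as did 3 other E-box factors, 1 coactivator, 2 genes of Myc transcription and mRNA stability, 6 metabolic targets, 2 cell cycle targets and 1 repressed target, while of the corepressors, nucleolar targets and translation and mitochondrial targets 0 passed (limma, with 3, 5 and 2 at an unadjusted p under 0.05). With the sample number as a replicate block 3264 genes passed and 5 members, and 1 coactivator, 1 corepressor and 3 nucleolar targets did. The counts of the other lists stayed within 1.5 times. Same-numbered samples showed no visible pairing, which does not exclude one. With trend and robust variance 5 corepressors and 7 translation and mitochondrial targets passed. With the mean of probe sets 3 other E-box factors and 9 genes of MYC turnover passed. Median centring and all probe sets each gave 5 nucleolar targets, and all probe sets gave 1 coactivator.

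When samples were omitted one at a time, 2920 to 3211 genes passed, 3 to 6 members, 3 to 4 other E-box factors, 1 coactivator in every fit, 0 to 2 corepressors, 4 to 7 genes of turnover, 3 to 4 of Myc transcription and stability, 1 to 5 nucleolar, 8 to 11 metabolic, 7 to 9 cell cycle and 5 to 6 repressed targets. These fits hold fewer samples, and the cause of the other shifts was not tested. The number of arrays, 3 a group, limits the precision.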
